A study of Rattus norvegicus with 6 samples.

Results

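Cytosolic ribosomal protein genes encode the protein parts of the ribosome that works in the cytoplasm. They were taken here as the rat symbols that start with Rpl or Rps and a digit, start with Rplp, or equal Rpsa. Kinases of the Rps6k family, symbols ending in l1 and pseudogenes were left out. The rule found 78 genes on the array, and 77 of them had a probe well above background on at least 3 of the 6 arrays. Rpl27l2 stayed near background on all 6 arrays and was not tested. These 77 genes stood among 30709 features tested in all, of which 11913 were named genes.

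The tissue was renal cortex, which holds the glomeruli and the convoluted proximal tubules, from male Sprague-Dawley rats of the stock Crl:CD(SD), bought at 5 weeks of age. The 3 vehicle animals were given corn oil for 4 weeks. The 3 treated animals were given o-anthranilic acid, which is ortho-aminobenzoic acid, at 1000 mg/kg/day for 4 weeks. The route is not given in the sources used here, the labels name no engineered allele, and each group's samples are described as biological replicates. Total RNA was labelled with Cy3 and read on single-colour Agilent arrays, 1 per sample.

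A ribosome is built from a small subunit, which reads the messenger RNA, and a large subunit, which joins the amino acids. Both are cores of ribosomal RNA covered by proteins, most of them present once per ribosome, so their synthesis has to be matched. The messenger RNAs of most ribosomal proteins begin with a terminal oligopyrimidine (TOP) tract, a C followed by a run of C and T, through which the TOR complex 1 kinase controls their translation. Transcription of these genes and of ribosomal RNA rises with Myc and growth signals. Ribosomal protein messages are among the abundant messages of most tissues.

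The values are log2 of the processed spot signal minus the 75th percentile of the same array, called log2 signal below, so that 0 is the 75th percentile and each unit is a doubling. Between 63.7% and 69.3% of probes were well above background on the arrays. All 12 proximal tubule markers were measured, with a summed scaled signal of 1992 to 2098 on vehicle and 1973 to 2054 on treated arrays. The brightest markers carry most of that sum, and single markers differed more. Their log2 differences, treated minus vehicle, ran from -0.28 for Pck1 to 1.4 for Slc22a7, and 6 of the 12 were above 0. All 77 ribosomal protein genes were well above background on all 6 arrays. By mean signal, 73 of them lay in the brightest decile of features (decile 10), 2 in decile 9 and 2 in decile 2, which are Rpl3l and Rps12l4. The brightness of a probe also depends on its sequence, so a decile, and the words bright and dim, describe the signal of a probe and not the abundance of its transcript.

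The question put to the arrays was which transcripts of the cortex change under o-anthranilic acid. No ribosomal protein gene passed the threshold. With limma and Benjamini-Hochberg adjustment over all features, 0 of 77 had an adjusted p under 0.05, as did 0% of all features. The smallest adjusted p among the 77 was 0.478, for Rpl32, and their median was 0.912. At an unadjusted p under 0.05, 1 gene was higher in the treated animals, against 3.52% of all features, and 0 were lower, against 4.8% of all features. Rpl32 was the gene at that level, and all 3 of its treated values lay above all 3 vehicle values. No other member had groups without overlap in either direction, while 6.51% of all features did so upward and 8.13% downward. With 3 arrays against 3, an exact permutation test of 1 gene cannot give a p under 0.1.

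The differences were small. The log2 fold changes, treated minus vehicle, had a median of 0.041, a 1.03-fold difference, and 56 of 77 were above 0, or 72.7% against 48.6% of all features. The middle 50% of genes lay between -0.0032 and 0.079, and the median of all features was -0.0051. The median standard error of a single gene was 0.096 and the median distance from a gene's value to either end of its 95% interval was 0.23. For 75 of 77 genes the whole 95% interval lay within 0.5 of 0, a 1.41-fold difference, for each gene taken alone. The other 2 were Rpl3l and Rps12l4, both dim. The members share arrays and are not independent, so no test was made over them as a group.

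**Figure D1:**
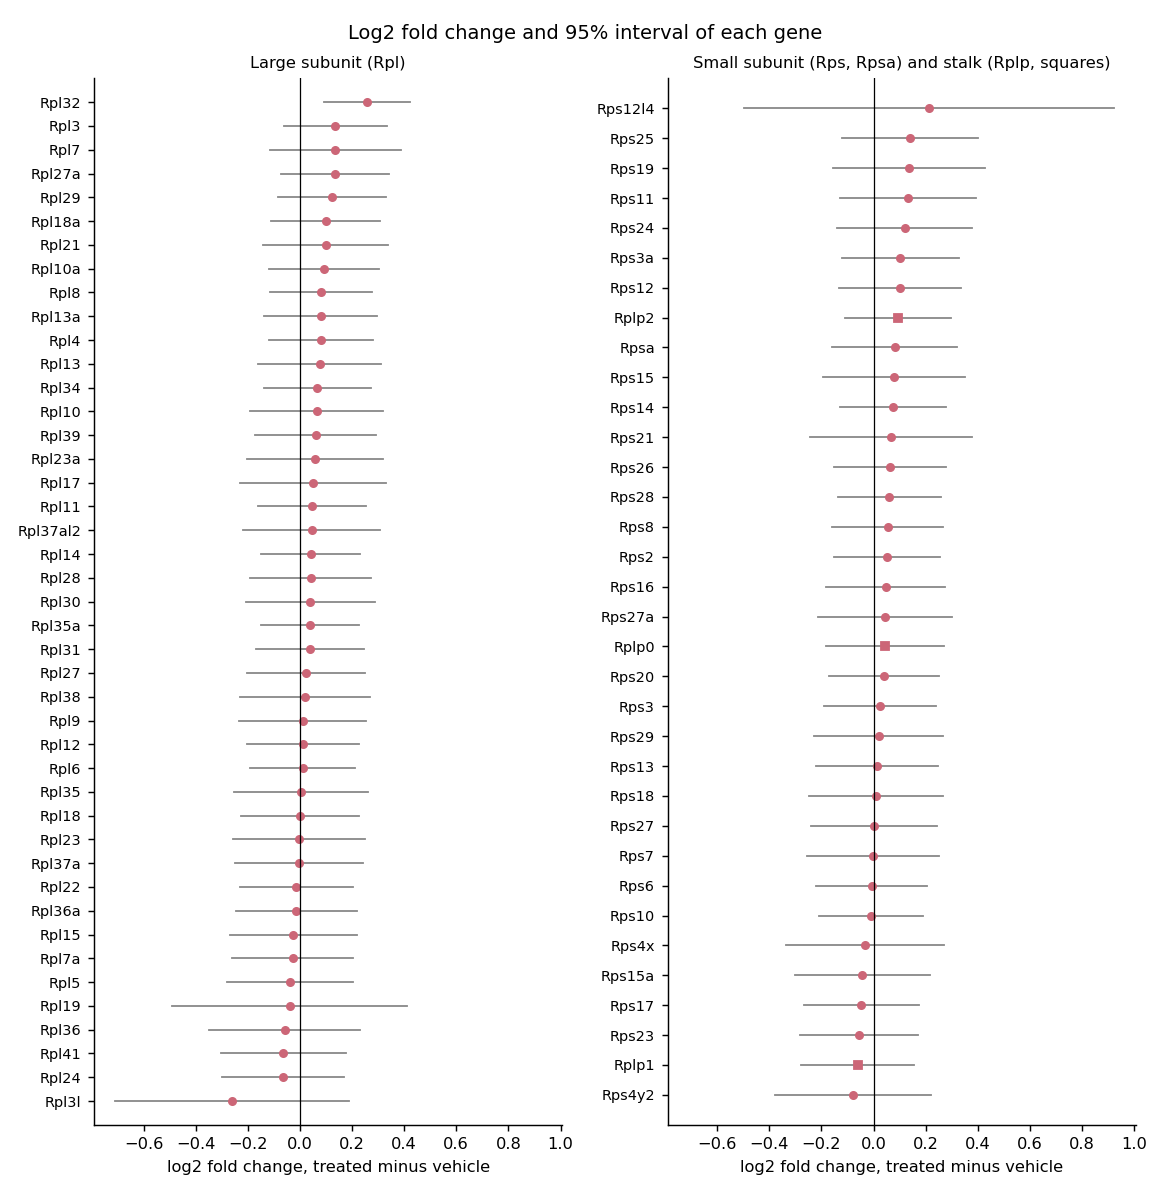
Log2 fold change of each of the 77 genes, treated minus vehicle, as points with 95% intervals from limma (n = 3 arrays per group), large-subunit genes on the left and small-subunit and stalk genes (squares) on the right, each ordered by value. Every interval but that of Rpl32 includes 0, and those of Rpl3l and Rps12l4 reach beyond 0.5.

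Both subunits had medians close to that of the whole family. Of 43 measured large-subunit genes, 31 had log2 fold changes above 0, with a median of 0.040. Of 31 small-subunit genes, 23 were above 0, with a median of 0.047. Of the 3 genes of the acidic stalk, the arm of the large subunit that recruits translation factors, Rplp0 had a log2 fold change of 0.043, Rplp1 of -0.061 and Rplp2 of 0.094. None of these separated the groups.

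The stalk genes show the pattern of values that most other members shared. Rplp0, the stalk base, had log2 signals of 8.46, 8.33 and 8.61 on vehicle arrays 1, 2 and 3, and of 8.51, 8.49 and 8.53 on treated arrays 1, 2 and 3. Rplp1 had 8.61, 8.53 and 8.78 on the vehicle arrays against 8.61, 8.54 and 8.59 on the treated arrays. Rplp2 had 7.71, 7.63 and 7.86 on the vehicle arrays against 7.85, 7.83 and 7.81 on the treated arrays. In all 3 genes vehicle 2 was the lowest and vehicle 3 the highest of the 6 arrays, and the treated arrays lay close together between them.

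The high vehicle 3 was shared by nearly the whole family, and the low vehicle 2 by most of it. Vehicle 3 had the highest of the vehicle values for 75 of 77 genes, or 97.4%, and the highest of all 6 values for 65. Vehicle 2 had the lowest of the vehicle values for 57 genes and the lowest of all 6 for 54. Relative to each gene's vehicle mean, the median of the 77 genes was -0.052, -0.10 and 0.15 on vehicle arrays 1, 2 and 3. It was 0.072, 0.037 and 0.014 on treated arrays 1, 2 and 3. The vehicle medians thus spanned 0.25, a 1.19-fold range, and the treated medians 0.058, a 1.04-fold range. Each of the 3 treated medians lay inside the vehicle range, and for 93.5% of the genes, against 57.3% of all features, the treated mean lay within the range of the 3 vehicle values. The difference between vehicle arrays, 1 per animal, was larger than the difference between the groups. The 75th percentiles used for scaling were 925.8, 1010 and 872.6 on vehicle arrays 1, 2 and 3. They were thus highest on vehicle 2 and lowest on vehicle 3, the reverse of the ribosomal protein medians. On treated arrays 1, 2 and 3 they were 935.1, 982.4 and 975.5. The part of the scaling in the spread between vehicle arrays was not tested.

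**Figure D2:**
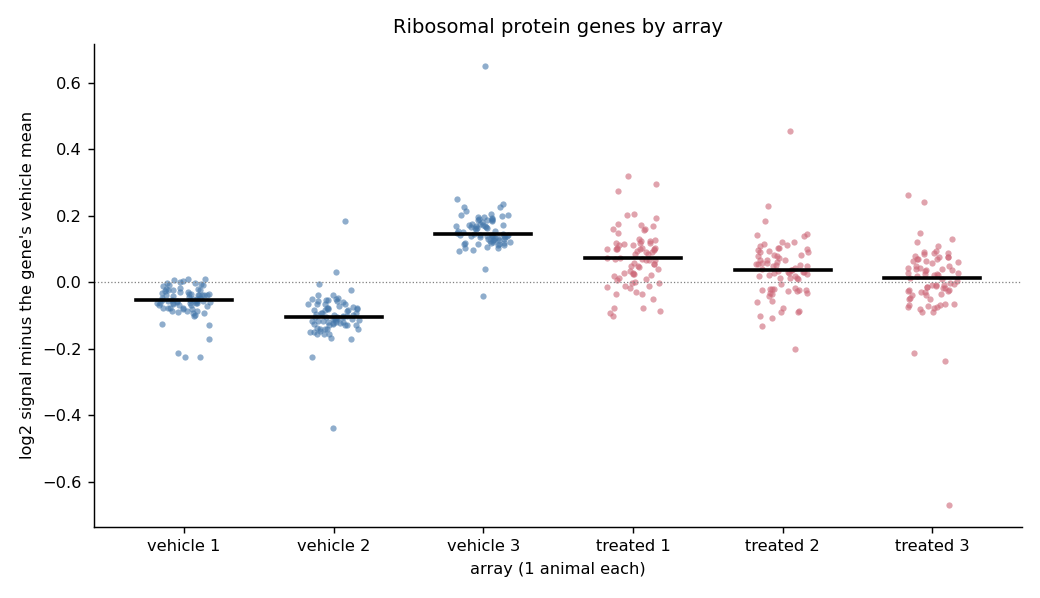
Log2 signal minus the gene's own vehicle mean for the 77 genes on each of the 6 arrays, 1 point per gene, with the median as a bar. The genes sit together on vehicle 3 with a median of 0.15, on vehicle 2 with a median of -0.10, and the 3 treated medians lie between 0.014 and 0.072.

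The genes lay closer together on the vehicle arrays than on the treated arrays. On vehicle arrays 1, 2 and 3 the middle 50% of the 77 genes spanned 0.046, 0.051 and 0.055 around their median. On treated arrays 1, 2 and 3 it spanned 0.10, 0.10 and 0.097, more than the distance of the median from 0. For the other features of the brightest decile it spanned 0.0995, 0.12 and 0.15 on the vehicle arrays and 0.16 on each treated array. The vehicle spans are narrower in part by construction, since each gene was set against its own vehicle mean. Across replicates, the median SD of a gene was 0.14 in vehicle and 0.050 in treated animals (n = 3 each). For all features the corresponding SDs were 0.14 and 0.12, and for the other features of the brightest decile 0.11 and 0.069.

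The vehicle 3 array stood out for other bright features too, by less. The 2998 other features of the brightest decile had medians of -0.042, -0.036 and 0.081 on the vehicle arrays against 0.032, 0.0057 and -0.032 on the treated arrays, again relative to vehicle means. Vehicle 3 was the highest vehicle value for 63.2% of them and for 37.9% of all features. In decile 9 the vehicle 3 median was 0.016, and in the dimmer deciles it lay between -0.0087 and 0.0021. The high ribosomal protein values on vehicle 3 thus came with higher values of bright probes in general, and the part of brightness in them was not tested. After quantile normalisation, which gives all arrays the same distribution, vehicle 3 was still the highest vehicle value for 64 of the 77 genes. The vehicle medians were then -0.020, -0.041 and 0.061 and the treated medians 0.050, 0.034 and 0.053. On that scale all 3 treated values lay above all vehicle values for 16 genes, against 6.96% of all features, and below them for 1, against 7.96%.

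**Figure D3:**
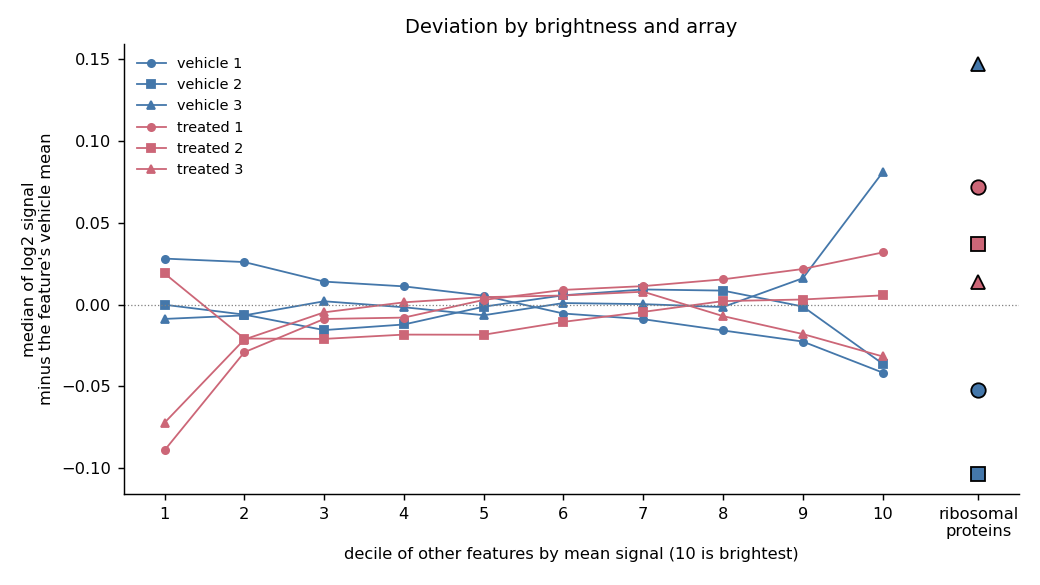
Median log2 signal minus the feature's vehicle mean, by array, for features in deciles of mean signal with the 77 ribosomal protein genes left out, and for those 77 genes at the right with outlined symbols. Vehicle 3 separates from the other arrays in the brightest decile, at 0.081, and further for the ribosomal protein genes, at 0.15.

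The size of the difference between groups depended on vehicle 3. Without that array the median log2 fold change was 0.12 and 75 of 77 genes were above 0, against 49.9% of all features. All 3 treated values then lay above both vehicle values for 53 genes, against 13.2% of all features. limma still gave 0 adjusted calls, for these genes and for all features. At an unadjusted p under 0.05 there were 4 genes, Rps12l4, Rpl32, Rps19 and Rps25, all higher in the treated animals, against 3.18% of all features, and 0 were lower, against 3.69%. The log2 fold changes of these genes without vehicle 3 were 0.54, 0.24, 0.25 and 0.23, with standard errors of 0.15, 0.072, 0.082 and 0.087. When vehicle 2, the array at the other end, was left out instead, the median was -0.013 and 34 genes were above 0. The labels give no reason to leave either animal out.

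Markers of other cells also varied between these arrays. Of 9 erythrocyte markers, which include globin genes and the heme synthesis gene Alas2, 8 were tested and their medians relative to the vehicle mean were -0.15, -0.083 and 0.24 on the vehicle arrays against 0.26, 0.55 and 0.56 on the treated arrays. All 8 log2 fold changes were above 0, with a median of 0.46, 5 were higher at an unadjusted p under 0.05, against 3.52% of all features, and 0 passed the adjusted threshold. Their summed scaled signal was 840, 882 and 1121 on the vehicle arrays against 1100, 1321 and 1352 on the treated arrays. The medians of red cell markers and of ribosomal protein genes were both highest among the vehicle arrays on vehicle 3. That held for 6 of the 8 red cell markers. Ahsp and Slc4a1 had their lowest vehicle value there, at -0.36 and -0.38 relative to the vehicle mean. On the treated arrays the marker medians were higher than on vehicle 3, and the ribosomal protein medians were lower. Of 5 thick ascending limb and distal tubule markers 3 were tested, and their summed signal was 448, 307 and 505 on the vehicle arrays against 450, 429 and 358 on the treated arrays. That sum was carried by Umod, the 1 of the 3 that was lowest on vehicle 2 and highest on vehicle 3, as the ribosomal proteins were. Podocyte markers, all 6 tested, had that order in their medians, with -0.063, -0.097 and 0.16 on the vehicle arrays against -0.17, -0.10 and -0.029 on the treated arrays, and vehicle 3 was highest of the vehicle arrays for 5. Their summed signal was 37.2, 33.8 and 39.3 on the vehicle arrays against 30.9, 31.7 and 38.4 on the treated arrays. Of 6 collecting duct and medulla markers, 0 were above 0 and 2 were lower without overlap, against 8.13% of all features, with sums of 251.5 to 289 on vehicle and 226.8 to 265 on treated arrays. Of 8 endothelial and fibroblast markers, Col1a1 (log2 fold change 0.47) and Pdgfrb (0.25) were higher at an unadjusted p under 0.05, against 3.52% of all features. Col1a2 and Col3a1 had log2 fold changes of 0.18 and 0.19. The endothelial markers Pecam1, Emcn, Cdh5 and Kdr had -0.11, -0.15, 0.024 and 0.038. The summed signal of the 8 was 45.6 to 48.6 on vehicle and 45.4 to 53.8 on treated arrays. Of 12 lymphocyte markers 10 were tested, with summed signals of 2.31 to 2.52 on vehicle and 1.88 to 3.23 on treated arrays, and of 10 macrophage and myeloid markers 8 were tested, with 97.5, 96.6 and 117.5 on the vehicle arrays against 82.7, 106.6 and 90.8 on the treated arrays. The part of any of these cells in the ribosomal protein values was not tested. In total RNA of a whole tissue, fewer cells of a type and less RNA per cell cannot be told apart.

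Rpl32 encodes a protein of the large subunit. The log2 signals of its brightest probe, which stands for RefSeq transcript NM_013226, were 6.80, 6.82 and 6.75 on vehicle arrays 1, 2 and 3 and 7.09, 7.02 and 7.03 on treated arrays 1, 2 and 3. The treated values were higher without overlap. The log2 fold change was 0.26 with a standard error of 0.068 and a 95% interval of 0.091 to 0.42, or 1.19-fold (n = 3 each, limma, unadjusted p = 0.00891, adjusted p = 0.478 by Benjamini-Hochberg). On this probe vehicle 3 was the lowest vehicle value.

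The other probes of Rpl32 gave smaller differences. Its 3 further kept probes had log2 fold changes of 0.052, 0.045 and 0.12. On them vehicle 3 was the highest vehicle array, by 0.12, 0.15 and 0.17 relative to the probe's vehicle mean, as for the rest of the family, and their groups overlapped. When the mean of a gene's probes was used, no ribosomal protein gene separated the groups upward. Rpl19, a large-subunit protein that reaches across to the small subunit, was the only other member whose brightest probe was not highest on vehicle 3 among the vehicle arrays. That probe gave 6.99, 7.40 and 7.26 on the vehicle arrays against 7.54, 7.02 and 6.98 on the treated arrays, with treated values at both ends of the range (log2 fold change -0.039, standard error 0.19). Its 3 further probes had log2 fold changes of 0.074, 0.047 and 0.047, and on each of them vehicle 3 was the highest vehicle array. Both exceptions to the high vehicle 3 thus rested on 1 probe of 4.

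**Figure D4:**
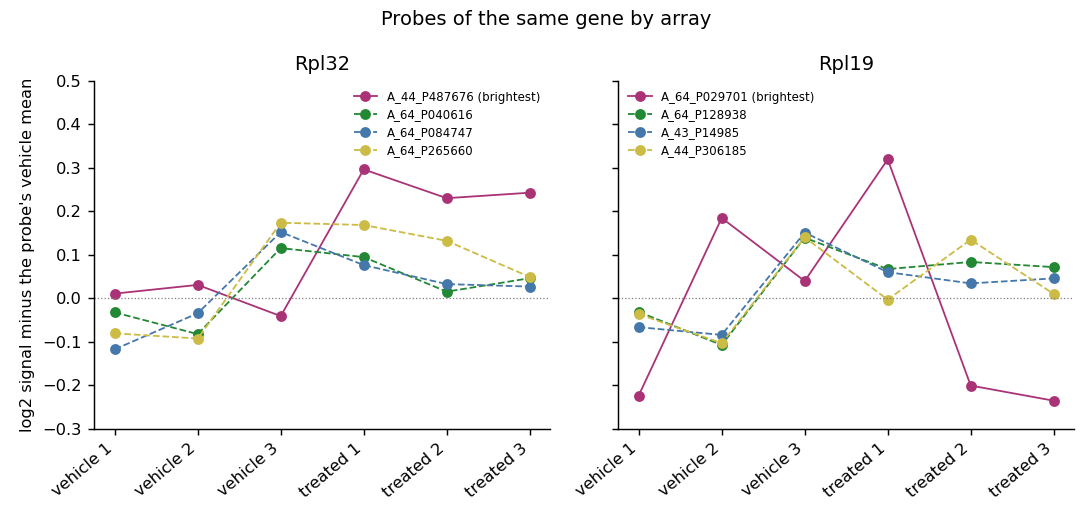
Log2 signal minus the probe's vehicle mean on the 6 arrays for the 4 kept probes of Rpl32 (left) and of Rpl19 (right), with the brightest probe as a solid line. The brightest Rpl32 probe is the one whose treated values all exceed its vehicle values, and in both genes the 3 other probes peak among the vehicle arrays on vehicle 3.

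Of 69 genes with more than 1 kept probe, 66 had log2 fold changes that spanned less than 0.25 across probes, and 27 had probes of both signs around 0. The widest spans were 0.67 for Rpl36a, 0.47 for Rps16 and 0.42 for Rpl12. In Rpl36a the span came from its dimmest probe, with a log2 fold change of -0.64 at a mean log2 signal of -4.19, while its brightest probe gave -0.014. In Rps16 it came from a probe that was high on treated 1 alone. In Rpl12 it came from probes well within the bright range. The brightest and the next probe, at mean log2 signals of 6.28 and 6.19, had log2 fold changes of 0.010 and 0.024. The other 2, at 5.93 and 4.38, had 0.34 and 0.43, and on both of them all treated values lay above all vehicle values. Probes of Rpl12 thus disagreed on whether the groups separate. The naming table lists 883 ribosomal protein pseudogenes. Probe sequences were not used here, so signal from a gene and from expressed copies cannot be told apart.

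After Rpl32, the members with the smallest unadjusted p on the higher side were all large-subunit proteins, and in each the groups overlapped. Rpl3, which helps to shape the site where amino acids are joined, had 5.94, 5.96 and 6.10 on the vehicle arrays against 6.21, 6.08 and 6.12 on the treated arrays, a log2 fold change of 0.14 (standard error 0.081). Rpl27a had 6.43, 6.32 and 6.54 against 6.60, 6.51 and 6.58, a log2 fold change of 0.13 (standard error 0.086). In both genes 2 of 3 treated values exceeded vehicle 3. Rpl29 had 6.80, 6.80 and 6.99 against 7.02, 7.01 and 6.93, a log2 fold change of 0.12 (standard error 0.085). Rpl7 had 6.95, 6.84 and 7.09 against 7.08, 6.98 and 7.22, a log2 fold change of 0.14 (standard error 0.10). Its other kept probes had -0.014 and 0.030, so that value rested on the brightest probe. Those of Rpl3, Rpl27a and Rpl29 had log2 fold changes between 0.084 and 0.12. The adjusted p of these 4 genes lay between 0.694 and 0.752 in limma with Benjamini-Hochberg adjustment.

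On the lower side the member with the smallest unadjusted p was Rpl3l, the relative of Rpl3 that is made mainly in heart and skeletal muscle. It was dim, with -3.96, -3.96 and -3.79 on the vehicle arrays against -3.91, -4.01 and -4.57 on the treated arrays. The log2 fold change of -0.26 (standard error 0.18) rested on treated 3, and the other 2 treated values lay beside the vehicle values. Rpl24, which forms a bridge between the subunits, had 7.75, 7.68 and 7.97 against 7.77, 7.72 and 7.72, a log2 fold change of -0.066 (standard error 0.0965). Rpl41, the smallest of the proteins, had 8.92, 8.88 and 9.15 against 8.99, 8.85 and 8.91, a log2 fold change of -0.064 (standard error 0.098). Rplp1, given with the stalk, was the remaining bright gene of this kind. On the brightest probes of these bright genes vehicle 3 was the highest of all 6 arrays, and the treated values lay close to vehicle 1 and 2. The other kept probe of Rpl24, Rpl41 and Rplp1 had log2 fold changes of 0.024, 0.055 and 0.072. The negative sign in these genes thus rested on the brightest probe.

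Rps4y2, the last of the 5 genes on that side, is a near copy of Rps4x, a small-subunit protein. Rps4x had 4.40, 4.49 and 4.82 on the vehicle arrays against 4.53, 4.48 and 4.59 on the treated arrays (log2 fold change -0.033, standard error 0.12). Rps4y2 had 3.74, 3.96 and 4.19 against 3.88, 3.91 and 3.87 (log2 fold change -0.078, standard error 0.12). The other kept probe of Rps4y2, a dimmer one, had a log2 fold change of -0.28. Signal of these copies cannot be told apart here, since probe sequences were not used. The other dim member, Rps12l4, had -4.57, -4.79 and -3.70 on the vehicle arrays against -4.25, -3.90 and -4.27 on the treated arrays, with vehicle 3 again the highest of all 6 (log2 fold change 0.21, standard error 0.29).

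Members with known roles outside the ribosome had values of the same kind. Rpl5 and Rpl11 bind Mdm2 when ribosome assembly fails and so stabilise p53. Rpl5 had 5.56, 5.50 and 5.81 on the vehicle arrays against 5.57, 5.58 and 5.60 on the treated arrays (log2 fold change -0.038, standard error 0.10). Rpl11 had 6.996, 6.97 and 7.16 against 7.13, 7.02 and 7.12 (0.047, standard error 0.085). Rpl23, which also binds Mdm2, had 7.44, 7.35 and 7.68 against 7.47, 7.53 and 7.46 (-0.0032, standard error 0.10). In none of the 3 did any treated array reach vehicle 3.

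Rps6 is the protein that the S6 kinases phosphorylate downstream of TOR complex 1. The log2 signals of its brightest probe were 7.63, 7.54 and 7.79 on the vehicle arrays against 7.64, 7.67 and 7.63 on the treated arrays, a log2 fold change of -0.0076 (standard error 0.088). Its other kept probes, at mean log2 signals of 5.93 and 5.77, had log2 fold changes of 0.025 and 0.19. On the dimmest of them all treated values lay above all vehicle values, so probes of Rps6 disagreed on whether the groups separate. Rps3, which also takes part in DNA repair, had 6.74, 6.67 and 6.92 against 6.78, 6.83 and 6.79 (0.024, standard error 0.088). Rps19, whose human counterpart is mutated in Diamond-Blackfan anaemia, had 6.18, 6.08 and 6.48 against 6.45, 6.36 and 6.34 (0.14, standard error 0.12). Of these, Rps19 had the widest vehicle range. Rpsa, the laminin receptor, had 5.61, 5.53 and 5.83 against 5.77, 5.71 and 5.73 (0.081, standard error 0.098). Its treated values lay between vehicle 1 and vehicle 3.

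Rps27a is made as a fusion with ubiquitin, and had 6.39, 6.31 and 6.64 against 6.53, 6.51 and 6.42 (log2 fold change 0.044, standard error 0.11). Rps27 had 6.83, 6.72 and 7.02 against 6.93, 6.83 and 6.82 (0.0026, standard error 0.10). Rpl13a, known for silencing of inflammatory messages and as a reference gene in quantitative PCR, had 7.05, 6.94 and 7.20 against 7.17, 7.11 and 7.15 (0.080, standard error 0.089). Each of these genes again had its lowest value on vehicle 2 and its highest on vehicle 3. Rpl22 had 6.23, 6.16 and 6.41 against 6.28, 6.28 and 6.20 (-0.014, standard error 0.089). Rpl10, an X-linked protein added late in assembly, had 7.11, 6.99 and 7.33 against 7.20, 7.24 and 7.18 (0.064, standard error 0.10). Rpl39, at the exit of the peptide tunnel, had 6.24, 6.22 and 6.48 against 6.36, 6.43 and 6.32 (0.060, standard error 0.095). In these 3 genes too, vehicle 3 was the highest of the 6 arrays.

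To see which genes have such a tract at the annotated start, 30-base windows from RefSeq (build GRCr8), 15 bases before the first base and 15 from it on, were read for the 62 of 77 members that the promoter table lists. The following were chosen to show genes whose values are given above, with and without the tract. Capitals mark an unbroken run of at least 5 C or T that includes the first base of the gene.
Rplp0, chr12:46718376-46718405, minus strand: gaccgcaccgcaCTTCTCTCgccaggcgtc
Rplp1, chr8:71290858-71290887, minus strand: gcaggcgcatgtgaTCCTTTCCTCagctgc
Rpl19, chr10:83519049-83519078, plus strand: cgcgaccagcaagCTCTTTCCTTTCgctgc
Rpl10, chrX:157205835-157205864, plus strand: caggcgtgggagcgTCTCTTTTCCTCTggc
Rpl29, chr8:115947628-115947657, plus strand: gggCCTTTCTCTTTCTCTTCCggtcccagg
Rpl27a, chr1:172974558-172974587, plus strand: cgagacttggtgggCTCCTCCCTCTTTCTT
Rpl24, chr11:58128391-58128420, minus strand: gaatttagggaggagattctctaccctata
Rpl41, chr7:1563483-1563512, minus strand: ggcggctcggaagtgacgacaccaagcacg

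A run of this kind was present in 38 of the 62 windows, or 61.3%, against 12% of the 33469 promoters in the table. A C at the first base followed by at least 4 pyrimidines was present in 23, or 37.1%, against 2.63%. CTCTTT was found on the gene's strand between 10 bases before and 15 after the start in 14, or 22.6%, against 0.881%, and CTTTCC in 13, or 21%, against 0.938%. The motifs can overlap, as they do in Rpl19, and the opposite strand was not searched. The start in the promoter table was the same as the boundary in the gene table for 28 of the 62 and differed from it for the others. A gene without a run in this window, such as Rpl24 or Rpl41, is described only as lacking these letters there. The members with a run had a median log2 fold change of 0.042, with 28 of 38 above 0. The 24 without had a median of 0.017, with 15 above 0. For a C and 4 pyrimidines at the first base the medians were 0.041 with and 0.024 without. For the 2 other motifs the order was the reverse. The medians were 0.027 with and 0.041 without CTCTTT, and 0.0026 with and 0.044 without CTTTCC. These differences were not tested.

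Other genes with TOP messages, or whose proteins work at the ribosome, also had a high vehicle 3 array. These 14 include Hnrnpa1, an RNA-binding protein. Their medians relative to the vehicle mean were -0.055, -0.028 and 0.12 on the vehicle arrays against 0.044, 0.020 and -0.0023 on the treated arrays, and vehicle 3 was the highest vehicle value for 78.6% of them. In limma 0 of 14 passed the adjusted threshold and 0 had an unadjusted p under 0.05. The median log2 fold change was 0.0058. Hnrnpa1 had 0.24, the nucleosome chaperone Nap1l1 -0.14 and Naca, which binds nascent chains, -0.047.

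The factors that load and drive the ribosome gave no calls. Of 37 initiation and elongation factors 33 were tested, 0 passed the adjusted threshold, and 0 had an unadjusted p under 0.05 in either direction. Their median log2 fold change was 0.017, 20 were above 0, and the groups did not overlap for 5 higher and 1 lower, where 6.51% and 8.13% of all features did so. Eif2s3, a subunit of the factor that brings the initiator transfer RNA, had a log2 fold change of 0.22 and the helicase Eif4a1 0.14. Eif6, which keeps free large subunits apart from small ones, had -0.17 and Eif4b -0.084.

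Ribosome assembly factors, which build the subunits in the nucleolus, did not show the high vehicle 3 array as a set. Of 46 listed 41 were tested, with a median log2 fold change of 0.0021, and their array medians stayed between -0.018 and 0.021, with vehicle 2 rather than vehicle 3 the highest. They were dimmer, with summed scaled signals of 224 to 234 on vehicle arrays against 9296 to 11020 for the 77 ribosomal protein genes. The part of brightness in this contrast was not tested. By limma 0 passed the adjusted threshold, and the nucleolar GTPase Gnl3 was the 1 gene with an unadjusted p under 0.05, at a log2 fold change of -0.17, where 4.8% of all features were lower at that level. The groups did not overlap for 5 higher, against 6.51% of all features, and for 3 lower, against 8.13%. Wdr43 had 0.21, Heatr1 0.23 and Rrs1 -0.16. Upstream, 31 of 36 genes of TOR complex 1 and Myc control were tested with a median of -0.0028 and 0 adjusted calls. At an unadjusted p under 0.05, Tsc1, Sesn2 and Myc were lower, with log2 fold changes of -0.56, -0.28 and -0.44, against 4.8% of all features, and 0 were higher, against 3.52%. Tsc1 was well above background on 4 of 6 arrays, with mean log2 signals of -4.47 in vehicle and -5.02 in treated animals, so its fold is uncertain. The groups did not overlap for 2 higher, Mycn (log2 fold change 0.72) and Mlst8 (0.16), against 6.51% of all features. They did not for 4 lower, against 8.13%. Mycn was dim too, with mean log2 signals of -3.80 in vehicle and -3.08 in treated animals and a standard error of 0.37. Relative to its vehicle mean it was -0.88, 0.63 and 0.24 on the vehicle arrays against 0.70, 0.76 and 0.70 on the treated arrays. Tsc1 and Sesn2 restrain TOR complex 1, and Myc drives ribosome synthesis. Of 13 genes of ribosome quality control and ribosomal stress 9 were tested, with a median of 0.048 and 0 genes at an unadjusted p under 0.05.

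The mitochondrial ribosome, which makes the membrane proteins of the respiratory chain, and the proteasome are other large complexes whose parts are made together. All 66 listed mitochondrial ribosomal protein genes were tested, with a median log2 fold change of 0.029 and 41 above 0. Their vehicle medians were -0.058, 0.0047 and 0.057 and their treated medians 0.070, 0.037 and -0.030, so vehicle 1 rather than vehicle 2 was lowest. Vehicle 3 was the highest vehicle value for 60.6% of them. All 38 proteasome genes were tested, with a median of 0.012, vehicle medians of -0.037, -0.012 and 0.050 and treated medians of 0.038, 0.014 and -0.018, and vehicle 3 was highest of the vehicle arrays for 76.3%. In limma with Benjamini-Hochberg adjustment 0 genes of either complex passed, and at an unadjusted p under 0.05 there was 1 higher and 1 lower mitochondrial gene and 1 lower proteasome gene, against 3.52% of all features higher and 4.8% lower. The groups did not overlap for 5 higher and 3 lower of the 66, and for 5 higher and 1 lower of the 38. Of all features, 6.51% were higher and 8.13% lower without overlap.

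**Figure D5:**
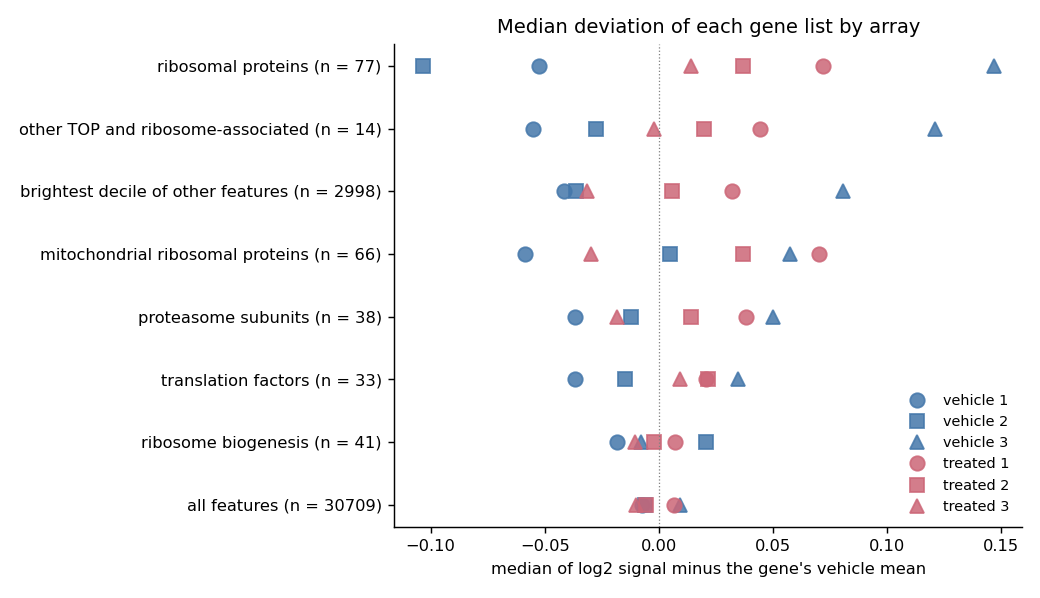
Median log2 signal minus the gene's vehicle mean on each of the 6 arrays, by gene list, with n the number of genes tested. Of the lists drawn, the ribosomal protein genes span the widest range, from -0.10 on vehicle 2 to 0.15 on vehicle 3, and the assembly factors one of the narrowest, from -0.018 to 0.021.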

How the data were processed

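The submitters' processing notes name Agilent Feature Extraction 10.7. The deposited scanner files give, per the file headers, spot intensity on a linear scale with the local background subtracted and no scaling between arrays. A deposited value table holds a ratio. Set against the scanner files, it equals the processed signal over the 75th percentile of its array. Its columns for replicates 1, 2 and 3 matched the scanner files for replicates 3, 1 and 2 in either group, and the numbering used here is that of the scanner files. Its column medians were 0.104, 0.106 and 0.103 in vehicle and 0.106, 0.104 and 0.103 in treated samples.

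From 61657 non-control probes, 84 external controls and 47 outlier flags were removed. No spot was saturated. RefSeq accessions named 27435 of the 61526 remaining probes, giving 15277 symbols. A gene was represented by its brightest probe among those well above background on at least 3 arrays. Since the array was designed on another build than that of the RefSeq tables, coordinates are given for start windows alone. limma 3.58.1 (lmFit, eBayes, Benjamini-Hochberg) compared the groups in R 4.3.3, with data.table (version 1.17.8) and jsonlite 2.0.0, after being tested on simulated data. The number of arrays limits the precision. Slide 1 held 5 arrays, and treated 2 was alone on slide 2.

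The genes and lists were chosen with earlier results of these data known. Named genes were the 5 smallest unadjusted p in each direction, any at unadjusted p under 0.05, and a set chosen by role. Rps12l4, Rps25, Rpl19, Rps16 and Rpl12 were added after their values were seen. In the other lists, apart from the cell markers, genes named were among the 2 with the smallest p in each direction or were at unadjusted p under 0.05. 1 gene among these is not reported here. Alternatives were normexp on the median spot and background signals (offset 50), quantile normalisation, scaling to the median or to the 75th percentile of probes detected throughout, the authors' ratio, dropping or tightening the filter, averaged probes per gene, a variance trend with robust fit, a block for replicate number or slide, and each array left out.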

Additional observations from a re-analysis of the deposited data

How the results depend on the processing

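The count of 0 ribosomal protein genes past the adjusted threshold of limma held under every alternative run, as did the count of 0 genes lower at an unadjusted p under 0.05. The median log2 fold change of these genes stayed between 0.040 and 0.051 under the other scalings, filters, sources of values, variance model and blocks, and lay between -0.013 (without vehicle 2) and 0.12 (without vehicle 3) when 1 array was left out. Counts of genes whose groups do not overlap moved most. The higher count was 2 with normexp, 16 with quantile normalisation and 0 with averaged probes per gene, against 6.33%, 6.96% and 6.17% of all features. It lay between 1 and 53 when an array was left out, against 10.2% to 13.2% of all features. The lower count was 1 with quantile normalisation, against 7.96% of all features. It was between 0 and 2 when an array was left out, against 12.4% to 14.7%. The count higher at an unadjusted p under 0.05 was 0 with averaged probes per gene, against 3.46% of all features. It was between 1 and 4 when an array was left out, against 2.98% to 3.8%. The cause of these shifts was not tested. Of 27 named genes, 15 changed sign in at least 1 alternative, and none of the 459 values under alternatives crossed the adjusted threshold. Of 85 values for the lists of related genes, 79 stayed within the spread between replicates. The exceptions were all close to 0: TOR complex 1 and Myc control at -0.040 with slide as a block or without treated 2, -0.047 without vehicle 1 and 0.040 without vehicle 3, assembly factors at -0.014 without vehicle 1, and quality control at -0.0067 without vehicle 3.

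Same-numbered animals did not deviate together over all features: the correlations of their deviations from the group means were 0.023, -0.044 and -0.021. Those of differently numbered animals lay between -0.071 and 0.088. The values show no pairing by number, and cannot exclude one that touches fewer features. With the replicate number as a block the median was 0.041, 0 genes passed, and Rpl32 had an adjusted p of 0.628 in limma with Benjamini-Hochberg adjustment. Slide as a block leaves the same comparison as leaving out treated 2, which was alone on its slide. The non-overlap counts have no blocked value. The widest intervals were those of the dim probes of Rpl3l and Rps12l4 and of the bright probe of Rpl19.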

Other observations

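Relatives of the ribosomal protein genes that the naming rule left out had values of similar size. Rpl22l1, the paralogue of Rpl22, had a log2 fold change of 0.16 (standard error 0.090) and Rpl37l1 of 0.083 (standard error 0.091). Rpl36al1 had -0.057 and Rplp1l1 -0.065. Rpl36al1, Rpl37l1 and Rplp1l1 had their highest vehicle value on vehicle 3, at 0.090, 0.16 and 0.13 above the vehicle mean, and so did Rpl22l1, at 0.084. None of their groups separated.

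Of the Rps6k kinases, some of which phosphorylate Rps6, none had an unadjusted p under 0.05 in limma, and groups did not overlap for 1 lower and 1 higher, where 8.13% and 6.51% of all features did so. Rps6kb1, the main S6 kinase, was -0.030, -0.0047 and 0.035 relative to its vehicle mean on the vehicle arrays against -0.19, -0.11 and -0.062 on the treated arrays, so its groups did not overlap (log2 fold change -0.12, standard error 0.072, adjusted p = 0.693 in limma with Benjamini-Hochberg adjustment). Rps6ka1, a kinase of the MAP kinase pathway, was 0.037, 0.011 and -0.048 on the vehicle arrays against 0.12, 0.089 and 0.24 on the treated arrays, again without overlap (log2 fold change 0.15, standard error 0.076, adjusted p = 0.659). Rps6kb2 had a log2 fold change of 0.13, Rps6ka2 of 0.10, Rps6ka3 of -0.054 and Rps6ka4 of -0.092, each with overlapping groups. On neither Rps6kb2 nor Rps6ka1 was vehicle 3 the highest vehicle array. Neither the S6 kinases nor Rps6 passed the threshold on the brightest probe, and phosphorylation was not measured.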
